A study of Mus musculus with 32 samples.

Results

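Heat shock and ER chaperones were represented by 10 genes of the 33000 in the count table. They were chosen by symbol from the cytosolic and endoplasmic reticulum (ER) chaperone families, with earlier results of these data known but by a rule that sets no threshold on them, and all 10 were present. The series profiled frontal cortex of wild-type (WT) mice, strain C57BL/6 and 3 months old, and of mice of the same strain and age that are homozygous for GFAP-IL6, a transgene that expresses interleukin 6 under the promoter of the astrocyte gene Gfap. Libraries were made by 3'Pool-seq, an RNA-seq method that reads the 3' ends of polyadenylated transcripts and handles many barcoded samples in a single tube from an early step on. Total RNA inputs of 50, 10, 1 and 0.5 ng were used. The 2 genotypes and 4 inputs make 8 groups of 4 libraries, that is 32 libraries. The labels did not say whether a library of the same number at another input was made from the same RNA, nor whether replicate numbers stood for separate animals, so p-values measure the spread between these libraries, which may be technical.

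Molecular chaperones bind unfolded protein and let it fold, and many use cycles of ATP binding and hydrolysis to do so. In the cytosol, Hspa8 (Hsc70), Hsp90ab1 and Hsp90aa1 are abundant in unstressed cells, while Hspa1a and Hspa1b (inducible Hsp70) and Dnajb1, Hsph1 and Hspb1 are raised by heat shock factor 1 when proteins misfold. Dnajb1 is an Hsp40 co-chaperone that passes clients to Hsp70, Hsph1 (Hsp110) exchanges its nucleotide, and Hspb1 (Hsp25) is a small heat shock protein that holds clients without ATP. In the ER lumen, Hspa5 (BiP) and Hsp90b1 (Grp94) do the corresponding work and are raised by the unfolded protein response.

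The promoters of the members differ in the elements through which these responses are known to act. RefSeq promoters (GRCm38.p6, 250 bases before the start of transcription and 50 from it on) were matched for 7 of the 10 members, namely Hspa1a, Hspa1b, Hspb1, Hsph1, Dnajb1, Hspa5 and Hsp90b1. A pair of facing heat shock units, GAANNTTC or TTCNNGAA (each reads the same on both strands), was found in 4 of the 7, against 15.1% of all 32851 promoters. The ER stress arrangement, CCAAT and CCACG 9 bases apart on either strand, was found in 2 of the 7, against 0.119% of all promoters. The windows around these matches are shown 5' to 3' on the strand of the gene, with the matched letters in capitals, because the heat shock pair was found in cytosolic members and the ER stress arrangement in ER members.
Hspa1a, chr17:34972233-34972280, minus strand: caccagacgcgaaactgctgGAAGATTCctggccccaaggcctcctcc
Hspa1b, chr17:34959315-34959362, minus strand: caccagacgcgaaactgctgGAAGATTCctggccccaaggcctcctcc
Hspb1, chr5:135887782-135887849, plus strand: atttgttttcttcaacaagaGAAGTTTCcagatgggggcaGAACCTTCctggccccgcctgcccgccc
Hsph1, chr5:149636351-149636380, minus strand: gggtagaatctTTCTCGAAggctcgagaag
Hspa5, chr2:34772020-34772048, plus strand: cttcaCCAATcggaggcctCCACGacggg
Hsp90b1, chr10:86705513-86705676, minus strand: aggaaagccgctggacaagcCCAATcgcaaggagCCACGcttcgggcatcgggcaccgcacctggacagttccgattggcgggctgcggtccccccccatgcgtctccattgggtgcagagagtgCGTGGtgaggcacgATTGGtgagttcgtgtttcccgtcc

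The Hspa1a and Hspa1b matches each began 104 bases before the start, in promoters that were identical at 296 of 300 positions. Hspb1 held 2 matches, at 117 and 97 bases before its start. Hsph1 held 3 in each of its 2 listed promoters, 1 before the start and 2 overlapping ones after it, and only 0.256% of all promoters held at least 3. Hsp90b1 held the ER stress arrangement at 212 bases before its start and, on the other strand, at 107 bases, and Hspa5 held it at 65 bases. These distances are from the RefSeq starts. GENCODE places the starts of Hspa5 and Hsph1 earlier, so there the Hspa5 match and the Hsph1 match before the start lie inside the gene. Neither promoter of Dnajb1 held these letters, which says nothing about the factors that bind there. A match describes the letters only.

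All 10 members are protein-coding genes, and their positions in GENCODE (GRCm38) bear on how well a read can be assigned. Hspa1b (chr17:34956436-34959238) and Hspa1a (chr17:34969190-34972156) lie 9951 bases apart on the minus strand. Of the 70-base windows of the Hspa1a transcript, 53.8% recurred in Hspa1b, but the nearest of them ended 856 bases from the 3' end, and no window in the last 500 bases of either transcript recurred in another gene. Reads near the 3' end can therefore tell this pair apart. Hspa8 (chr9:40800984-40810087) was the opposite case, since 85.2% of the windows in its last 500 bases recurred in other transcripts. All of these recurred in the lincRNA Gm26825, and 80.7% of the windows also in the processed pseudogene Gm15459. For Hspb1 (chr5:135887919-135889563) this share was 52.4%, and for Hsp90ab1 (chr17:45567775-45573271) it was 3.48%, while the other 7 members had none. Only uniquely aligned reads were counted, so the levels of Hspa8 and Hspb1 are uncertain to that extent. Whether counting used the strand was not stated, and Hspa1a and Hsp90b1 each overlap a gene on the other strand.

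Total counts ran from 261378 to 9840302 per library, so that 3 counts, the least taken as detection, were 0.305 to 11.5 CPM (counts scaled to a common library total). Markers of neurons summed to between 5130 and 7313 CPM in all 32 libraries. Gfap was called higher in GFAP-IL6 at 50 ng (log2 fold change 2.20 ± 0.27, SE, edgeR adjusted p = 0.000113) and at 10 ng (2.49 ± 0.28, edgeR adjusted p = 4.00e-07). At 1 and 0.5 ng Gfap was not called (1.83 ± 0.63, edgeR adjusted p = 0.997, and 1.59 ± 0.92, edgeR adjusted p = 0.9999). Il6 itself had at most 41 counts in a library, and up to 13 in WT at 1 ng. At 50 ng the summed markers of microglia were 191 to 302 CPM in GFAP-IL6 and 173 to 187 CPM in WT, and those of endothelial cells 30.9 to 75.8 and 16.6 to 24.3 CPM. The WT libraries numbered 3 stood apart at every input by Ttr, a choroid plexus gene, at 3003 to 3355 CPM against 25.5 to 335 CPM in the other libraries.

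The cytosolic Hsp90 pair and Hspa8 led the levels, and the inducible Hsp70 pair and Hspb1 stood far below them. At 50 ng the mean over 8 libraries was 2413 ± 279 CPM (SD) for Hsp90ab1, 1229 ± 65.8 for Hsp90aa1 and 813 ± 142 for Hspa8. The ER chaperones followed, with 471 ± 47.2 CPM for Hsp90b1 and 320.4 ± 48.2 for Hspa5. Hsph1 had 261 ± 27.9 CPM and Dnajb1 55.5 ± 5.63 CPM. At the lower end stood Hspa1b with 14.4 ± 2.53 CPM, Hspa1a with 12.5 ± 2.66 and Hspb1 with 11.5 ± 4.27. Ranges of neighbours in this order overlapped for Hspa8 and Hsp90b1, for Hspa5 and Hsph1, and among the lowest 3 genes. Reads come from 3' ends, so CPM was not divided by length. With division by the gene length of the table, the order was kept except that Hspb1, the shortest gene, moved from rank 10 to rank 8.

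Together the 10 genes took a median of 0.557% of all counts at 50 ng (range 0.525 to 0.606%, n = 8). The median share was 0.537% at 10 ng, 0.556% at 1 ng and 0.538% at 0.5 ng, so the ranges at all 4 inputs overlapped. Hspa1a and Hspa1b together made up a median of 0.00265% at 50 ng. Within the Hsp70 family, the mean log2 ratio of Hspa1a to Hspa8 in WT at 50 ng was -5.93 ± 0.33 (SD, n = 4), and in GFAP-IL6 it was -6.10 ± 0.09. The ratio of Hsp90aa1 to Hsp90ab1 was -0.94 ± 0.16 and -0.99 ± 0.16, and that of the ER pair Hspa5 to Hsp90b1 was -0.51 ± 0.07 and -0.62 ± 0.18. In each family the values of the 2 genotypes overlapped.

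**Figure D1:**
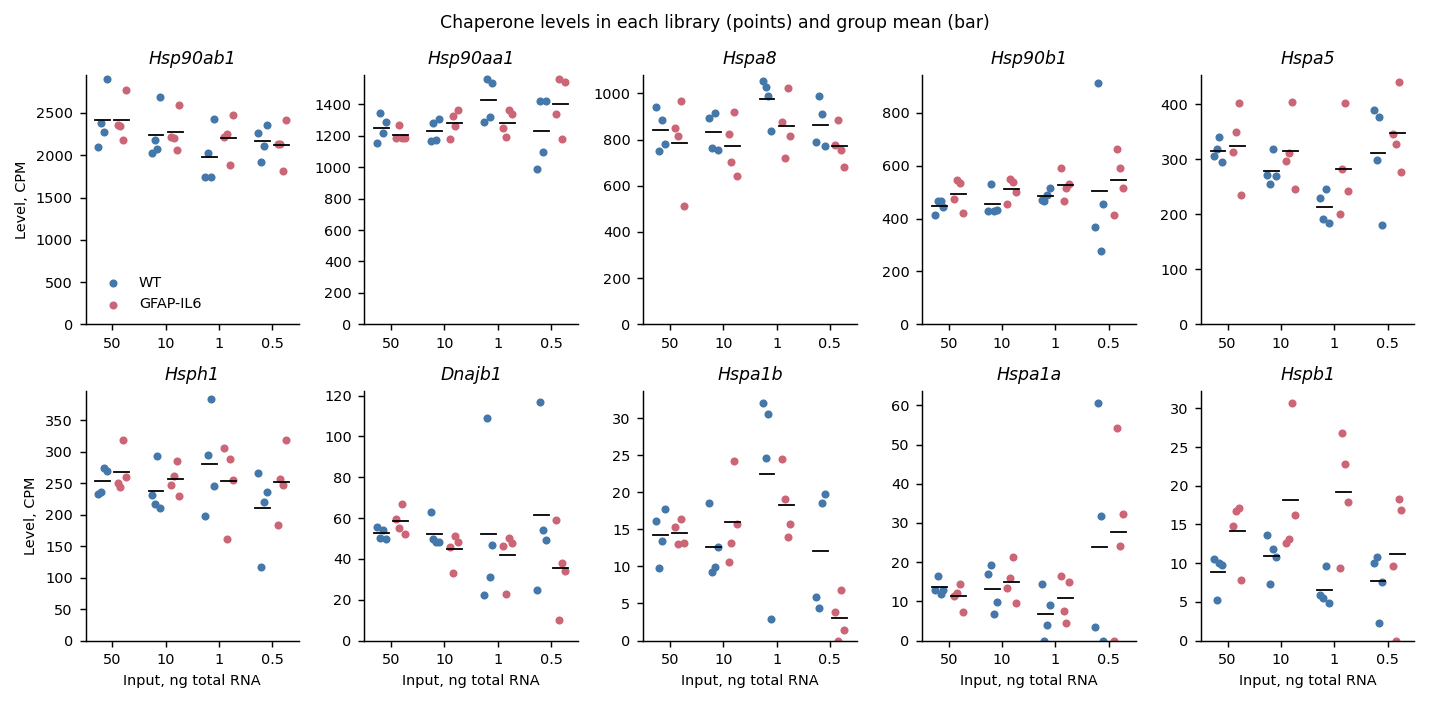
Level in CPM (vertical axes, from 0) against input in ng of total RNA for each of the 10 chaperones, ordered by level at 50 ng, with a point per library, blue for WT and red for GFAP-IL6, and a bar at the mean of 4. The genotypes overlap in every panel and at every input, and the points of the 3 least abundant genes spread widely at 1 and 0.5 ng.

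The comparison of genotypes asks whether chronic interleukin 6 production by astrocytes goes with a changed chaperone programme. No member was called in any of the 4 inputs (edgeR quasi-likelihood test, Benjamini-Hochberg adjusted p under 0.05), and the WT and GFAP-IL6 ranges overlapped for all 10 members at all 4 inputs. The test called 0.28% of 11773 genes at 50 ng, 0.332% of 12043 at 10 ng, 0.0323% of 9276 at 1 ng and 0.0117% of 8571 at 0.5 ng. Beside so low a background, the absence of calls among 10 genes is no result about the chaperones in particular. The share of all genes with overlapping ranges was not computed, so the overlap is no such result either. At an unadjusted p under 0.05 there were 0 members at 50 ng, 1 at 10 ng (Hspb1), 0 at 1 ng and 0 at 0.5 ng. Of all genes tested, 5.63, 7.48, 3.59 and 2.87% had such a p at these inputs. The DESeq2 test also called 0 members at each input. At 0.5 ng only 9 of the 10 were tested, since Hspa1b fell under the filter on low counts. In whole tissue, fewer cells of a type and less RNA per cell cannot be told apart.

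The abundant cytosolic members were measured tightly enough to bound a change. Hsp90ab1 had 2102, 2382, 2275 and 2897 CPM in WT libraries 1 to 4 at 50 ng and 2356, 2343, 2179 and 2774 CPM in GFAP-IL6. Both genotypes had 3 libraries close together and the library numbered 4 above them. Its log2 fold change was -0.04 ± 0.16 (SE), and the 95% interval of the fold change ran from 0.773 to 1.23. At 10 ng the corresponding log2 fold change was -0.01 ± 0.12, with a fold interval of 0.832 to 1.18. Hsp90aa1, the stress-responsive Hsp90 paralogue, had -0.09 ± 0.15 at 50 ng and 0.03 ± 0.12 at 10 ng. Its GFAP-IL6 libraries at 50 ng lay between 1186 and 1268 CPM, within the WT range of 1152 to 1347 CPM.

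Hspa8, the constitutive Hsp70, had 943, 752, 884 and 779 CPM in WT at 50 ng and 851, 815, 966 and 512 CPM in GFAP-IL6. GFAP-IL6 library 4 was the lowest, and the other 3 lay among the WT values up to slightly above the highest. The log2 fold change was -0.13 ± 0.18 at 50 ng and -0.14 ± 0.13 at 10 ng. The values at 1 and 0.5 ng were -0.20 ± 0.15 and -0.19 ± 0.17, and the intervals at all 4 inputs included 0.

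The inducible Hsp70 pair, the usual readout of a heat shock response, stayed at low counts in both genotypes. Hspa1a had 13.0, 16.5, 11.97 and 13.0 CPM in WT at 50 ng and 11.3, 12.1, 14.5 and 7.35 CPM in GFAP-IL6, from 13 to 98 counts in a library. The GFAP-IL6 values extended lower, and 2 of the 4 lay within the WT range. The log2 fold change was -0.30 ± 0.28 at 50 ng and 0.17 ± 0.35 at 10 ng. Hspa1b, encoding a nearly identical protein, had 16.1, 9.78, 13.4 and 17.8 CPM in WT and 15.4, 13.1, 16.4 and 13.1 CPM in GFAP-IL6. All 4 GFAP-IL6 values lay inside the WT range. Its log2 fold change was -0.05 ± 0.25 at 50 ng, with a fold interval of 0.672 to 1.38, and 0.29 ± 0.32 at 10 ng.

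The Hsp70 partners Dnajb1 and Hsph1 were likewise not called. Dnajb1 had a log2 fold change of 0.12 ± 0.17 at 50 ng, from 49.9 to 55.6 CPM in WT and 52.3 to 67.1 CPM in GFAP-IL6. At 10 ng it was -0.24 ± 0.19, from 48.5 to 62.9 and 32.9 to 51.4 CPM. Hsph1 had 0.05 ± 0.16 at 50 ng and 0.08 ± 0.14 at 10 ng, with fold intervals of 0.828 to 1.29 and 0.872 to 1.28.

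The ER chaperones, whose rise is the common sign of the unfolded protein response, did not pass the test either. Hspa5 had 306, 319.7, 341 and 295 CPM in WT at 50 ng and 313, 349.8, 403 and 235 CPM in GFAP-IL6. The GFAP-IL6 libraries thus lay on both sides of the WT range, with libraries 2 and 3 above it and library 4 below it. Its log2 fold change was 0.00 ± 0.17 at 50 ng and 0.14 ± 0.14 at 10 ng, with fold intervals of 0.788 to 1.28 and 0.907 to 1.34. At 1 ng it was 0.39 ± 0.22 (edgeR adjusted p = 0.997). Hsp90b1 had 415, 468, 467 and 445 CPM in WT and 472, 544, 534 and 421 CPM in GFAP-IL6 at 50 ng. Of its GFAP-IL6 libraries, 3 lay above the WT range and 1 within it. Its log2 fold change was 0.10 ± 0.15 at 50 ng and 0.13 ± 0.13 at 10 ng. The lower inputs gave 0.11 ± 0.16 and 0.07 ± 0.30.

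Hspb1 had the largest genotype difference of the 10 at 50, 10 and 1 ng, without passing the test. At 50 ng it had 10.5, 5.27, 10.02 and 9.82 CPM in WT and 14.8, 16.8, 17.1 and 7.89 CPM in GFAP-IL6. Here 3 of 4 GFAP-IL6 libraries lay above all WT libraries, while library 4 lay among them. At 10 ng the values were 13.6, 7.26, 11.9 and 10.8 CPM in WT and 12.6, 13.2, 30.7 and 16.3 CPM in GFAP-IL6. At 1 ng they were 5.89, 5.46, 9.64 and 4.91 CPM in WT and 9.37, 26.8, 22.9 and 17.9 CPM in GFAP-IL6, from only 2 to 50 counts per library. The ranges overlapped at each input. Before adjustment the edgeR p at 10 ng was 0.033. The log2 fold change was 0.53 ± 0.30 (SE) at 50 ng (edgeR adjusted p = 0.835), 0.70 ± 0.31 at 10 ng (edgeR adjusted p = 0.623), 1.52 ± 0.85 at 1 ng (edgeR adjusted p = 0.997) and 0.56 ± 1.26 at 0.5 ng (edgeR adjusted p = 0.9999). Hspb1 is made by endothelial and glial cells as well as neurons. The summed endothelial markers (3 of 3 with counts) at 10 ng were 25.6 to 62.0 CPM in GFAP-IL6 and 14.7 to 26.3 CPM in WT, and those of astrocytes (5 of 5) at 50 ng were 2899 to 3991 and 2622 to 3167 CPM. The part of these cell types in the Hspb1 values was not tested.

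The intervals were wider at the lowest inputs, where the libraries also had fewer counts. Median totals were 3.60e+06 and 4.46e+06 counts at 50 and 10 ng, and 1.46e+06 and 1.43e+06 at 1 and 0.5 ng. The separate parts of input and depth in the widths were not tested. At 50 ng, 9 of 10 members had a 95% interval within 1 log2 unit of no change, and 6 of 10 within 0.5. At 10 ng the numbers were again 9 and 6, and the median half-width of the interval was 0.28, against 0.35 at 50 ng. At 1 ng 6 of 10 lay within 1 log2 unit and at 0.5 ng 6 of 9, with median half-widths of 0.46 and 0.62. The intervals at 1 ng were widest for Hspa1a, Hspb1, Hspa1b and Dnajb1, the 4 least abundant members. At 0.5 ng, where Hspa1b was not tested, they were widest for the other 3 of these, and for Hspa1a at 0.5 ng the fold interval ran from 0.155 to 8.39. Over all genes tested, not matched to the members by level, the median half-width was 0.49, 0.53, 1.15 and 1.71 log2 units from 50 down to 0.5 ng.

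**Figure D2:**
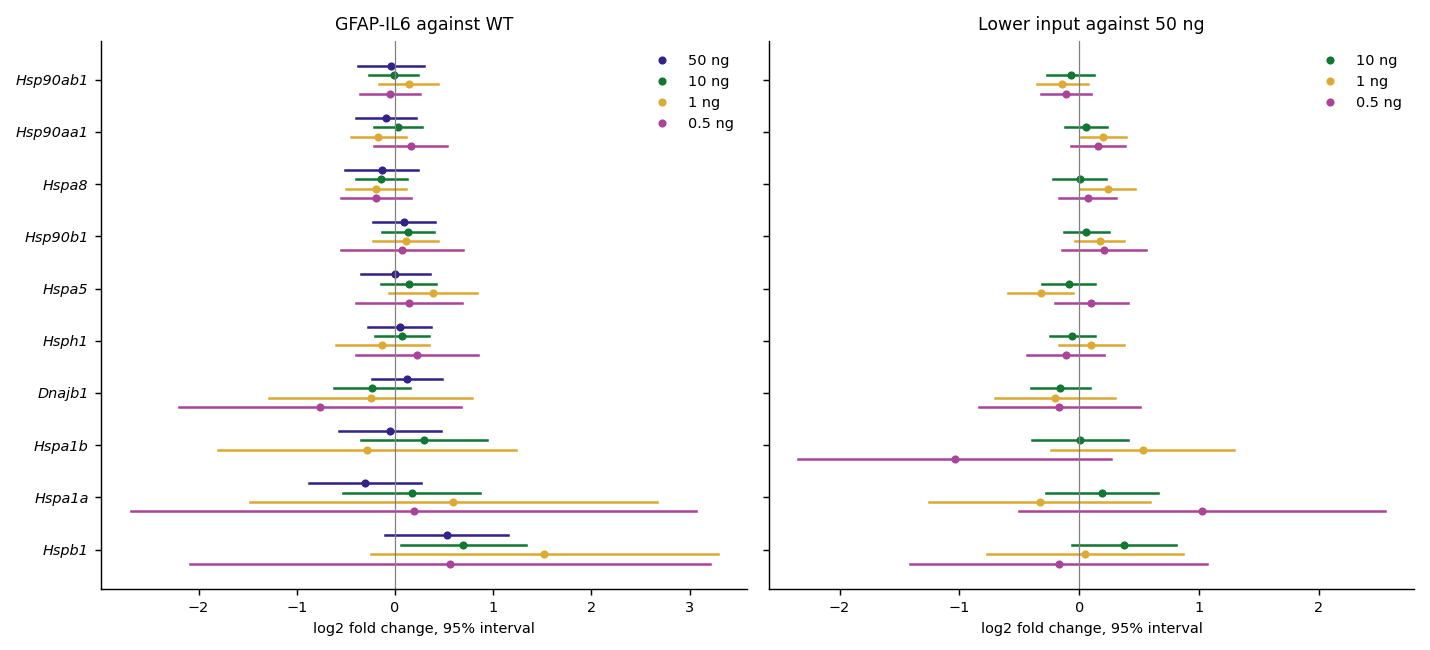
Log2 fold change (points) with its 95% interval (lines) from edgeR for each chaperone, GFAP-IL6 against WT at each input on the left and each lower input against 50 ng on the right, coloured by input. On the left every interval except that of Hspb1 at 10 ng crosses 0, and the intervals of the 4 least abundant genes widen most at 1 and 0.5 ng (Hspa1b has none on the left at 0.5 ng).

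Whether the genotype effect depended on input was tested as an interaction against 50 ng. No gene of any kind was called, that is 0% of 12599 genes at 10 ng, 0% of 11290 at 1 ng and 0% of 11406 at 0.5 ng, and so no member was. At an unadjusted p under 0.05 there were 174, 471 and 758 genes, of which 0 were members, and the DESeq2 test called 0, 4 and 68 genes, again with 0 members.

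The comparison of inputs asks whether lowering the RNA amount shifts a chaperone's level, irrespective of genotype. The 3 comparisons share the 50 ng libraries. At 10 ng against 50 ng, 0% of 12599 genes were called by edgeR (549 at an unadjusted p under 0.05, 27 by DESeq2 and 155 once replicate block terms were added, 0 of them members), and member log2 fold changes ran from -0.16 for Dnajb1 to 0.37 for Hspb1. Intervals of 10 of 10 members lay within 1 log2 unit and of 8 within 0.5. At 1 ng the test called 1.14% of 11290 genes and at 0.5 ng 1.68% of 11406, with 0 of 10 members in each.

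At 1 ng, 3 members had an unadjusted p under 0.05, a share of all genes tested that was 11.2%. Hspa5 was 320.4 ± 48.2 CPM at 50 ng and 247.8 ± 70.8 CPM at 1 ng (SD over 8 libraries), or a log2 fold change of -0.32 ± 0.13 (SE, edgeR adjusted p = 0.331). Hsp90aa1 was 1229 ± 65.8 and 1355 ± 131 CPM, a log2 fold change of 0.20 ± 0.09 (edgeR adjusted p = 0.388). Hspa8 was 813 ± 142 and 917 ± 123 CPM, a log2 fold change of 0.24 ± 0.11 (edgeR adjusted p = 0.415). At 0.5 ng against 50 ng the values of Hspa5, Hsp90aa1 and Hspa8 were 0.10 ± 0.15, 0.16 ± 0.11 and 0.07 ± 0.11, and the differences between 1 and 0.5 ng were not tested.

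The most abundant cytosolic genes had narrow intervals across the whole range of input. At 0.5 ng against 50 ng the fold interval was 0.80 to 1.07 for Hsp90ab1, 0.954 to 1.30 for Hsp90aa1 and 0.891 to 1.24 for Hspa8. For Hsph1, which heat shock factor 1 raises, it was 0.740 to 1.16. For the inducible Hsp70 pair the intervals were wider, 0.707 to 5.87 for Hspa1a and 0.197 to 1.20 for Hspa1b. Hspa1a had a log2 fold change of 1.03 ± 0.74 (edgeR adjusted p = 0.659) and Hspa1b one of -1.04 ± 0.64 (edgeR adjusted p = 0.575).

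Single values at low input showed where those wide intervals come from. Hspa1a had 3.33, 60.7, 31.6 and 0 CPM in WT at 0.5 ng and 0, 54.2, 24.0 and 32.3 CPM in GFAP-IL6. The highest of these, 60.7 CPM, rested on 28 counts, and the libraries at 0 allow up to 1.14 CPM in WT and 1.92 CPM in GFAP-IL6 at 3 counts. Hspa1b in the same libraries had 5.82, 4.33, 18.5 and 19.8 CPM in WT and 3.84, 0, 6.79 and 1.47 CPM in GFAP-IL6. WT library 2 was the highest of its group for Hspa1a and the lowest for Hspa1b, while WT library 3 was the second highest for both. Dnajb1 also varied widely in WT at 0.5 ng, with 24.9, 117, 54.0 and 49.4 CPM from 30, 54, 70 and 130 counts. No member was at or under 3 counts in any library at 50 or 10 ng. At 1 ng Hspa1a was so in 2 of 8 libraries and Hspb1 in 1, and at 0.5 ng Hspa1a, Hspa1b and Hspb1 were in 2 of 8 each and Dnajb1 in 1.

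Spread between replicates was larger at lower input, most of all for scarce transcripts. The median SD of log2(CPM + 1) over the 10 members and 2 genotypes went from 0.163 at 50 ng to 0.202 at 10 ng, and was 0.357 and then 0.520 at the 2 lowest inputs. Over 13392 genes with a mean CPM above 1, not matched to the members by level, it was 0.321, 0.346, 0.825 and 1.11. At 0.5 ng the 4 least abundant members had SDs of 0.846 to 2.73 and the other 6 had SDs of 0.129 to 0.732. Hsp90ab1 had no such increase, with an SD of 0.20 in WT and 0.15 in GFAP-IL6 at 50 ng and 0.13 and 0.17 at 0.5 ng. Hspa8 went from 0.15 and 0.40 at 50 ng to 0.17 and 0.16 at 0.5 ng. Hspa1a went from 0.19 and 0.38 to 2.73 and 2.62. Among the ER pair, Hsp90b1 at 0.5 ng had an SD of 0.73 in WT, where library 2 had 912 CPM against 277 to 455 CPM in the other 3, and 0.29 in GFAP-IL6. SDs of scarce genes include counting error, which the depth sets.

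**Figure D3:**
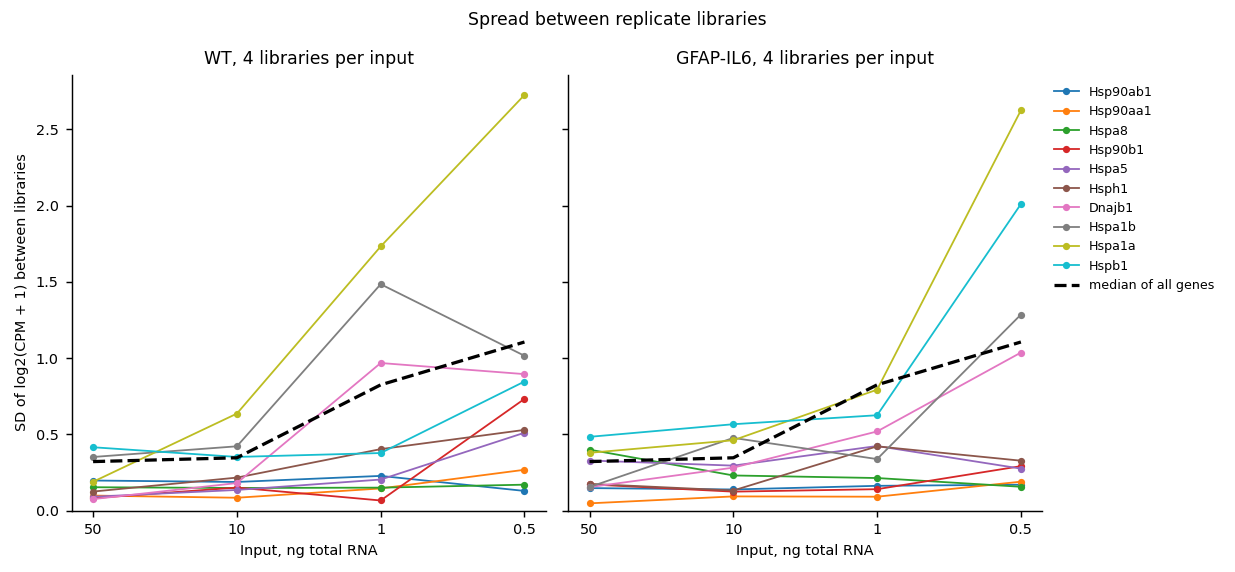
SD of log2(CPM + 1) between the 4 libraries of a group (vertical axis) against input for each chaperone, in WT on the left and GFAP-IL6 on the right, with the median over 13392 genes as a dashed line. Hsp90ab1 and Hsp90aa1 lie under the dashed line at every input and Hspa8 does except in GFAP-IL6 at 50 ng (0.40), whereas Hspa1a reaches 2.73 in WT and 2.62 in GFAP-IL6 at 0.5 ng.

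Several members deviated in the same direction in libraries that carry the same replicate number, a pattern noticed after the values were seen. Hsp90ab1 was highest in library 4 in 8 of 8 groups, with 2426 and 2472 CPM at 1 ng and 2356 and 2421 CPM at 0.5 ng (WT and GFAP-IL6). Of 13392 genes, 45 (0.336%) were highest in the same number in all 8 groups, 3 of them in library 4. Hspa5 was highest in library 3 in 7 of 8 groups and lowest in library 4 in 6 of 8. Its GFAP-IL6 library 3 had 403, 404, 403 and 441 CPM from 50 down to 0.5 ng, always above the other 3 libraries of the group. In all, 200 genes (1.49%) were highest in library 3 in at least 7 groups, and among 1812 genes with a mean over 100 CPM, as Hspa5 has, 119 (6.57%) were. Hspa8 was lowest in library 4 in 6 of 8 groups, and Hsp90b1 was highest in library 2 in 6 of 8. The share of all genes reaching 6 of 8 was not computed, so counts of 6 are no result about these genes in particular.

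With CPM scaled by TMM factors, Hsp90ab1 was still highest in library 4 in 8 of 8 groups, Hspa5 in library 3 in 5 of 8 and Hsp90b1 in library 2 in 6 of 8. Hspa8 was then lowest in library 4 in 5 of 8. Total counts were highest in library 4 and lowest in library 2 in all 8 groups, so for these numbers the replicate number and the depth cannot be told apart. Library 3 had neither the highest nor the lowest total in any group. Mitochondrial genes took 10.95 to 12.7% of the counts in the libraries numbered 3, against 14.9 to 20.1% in all others. The part of this difference in the levels was not tested. WT and GFAP-IL6 libraries of the same number come from different mice.

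**Figure D4:**
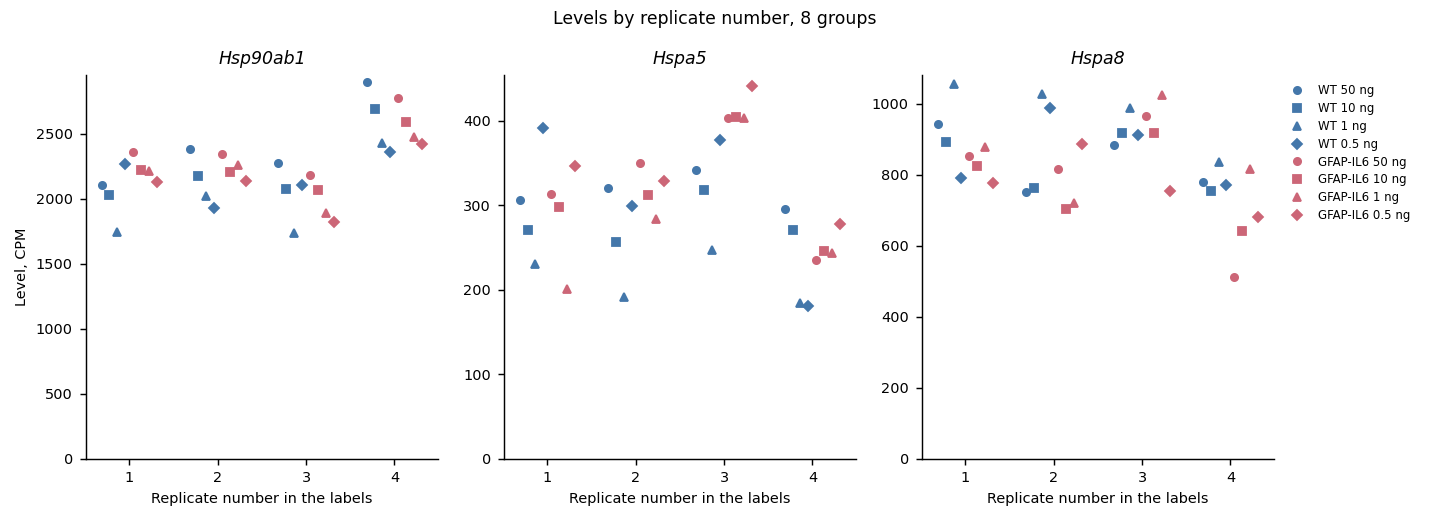
Level in CPM (from 0) of Hsp90ab1, Hspa5 and Hspa8 by the replicate number in the labels, with a point per library, coloured by genotype and shaped by input, and groups set side by side within a number. Library 4 is the highest of its group for Hsp90ab1 in 8 of 8 groups, and for Hspa5 library 3 is in 7 of 8.

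The recurrence was also measured as the agreement of deviations from the group mean between 50 and 10 ng, over 8 same-numbered pairs. For Hsp90ab1 Pearson's r was 0.989 and Spearman's rho 0.976, with p = 0.00174 and p = 0.00347 in a two-sided exact permutation test over the 576 pairings within genotype, of which 0.00174 is the smallest possible. After adjustment over 13384 genes these were 0.199 and 0.285 (exact permutation, Benjamini-Hochberg), and 0 of 13384 genes passed. With that smallest p, a gene could pass only together with many others at or near it. The absence of passing genes therefore decides nothing about a single gene. Without the 2 pairs farthest from the median, r for Hsp90ab1 was 0.936. For Hspa5 r was 0.914 and rho 0.762 (exact permutation p = 0.026 and 0.0764, adjusted 0.276 and 0.454), falling to an r of 0.600 without those 2 pairs. For Hspa8 r was 0.859 and rho 0.738 (exact permutation p = 0.0139 and 0.0625, adjusted 0.238 and 0.427), and r was 0.745 without 2 pairs. Hspa1a, despite its low counts, had r of 0.793 and rho of 0.881 (exact permutation p = 0.0122 and 0.00347, adjusted 0.228 and 0.285), and r of 0.766 without 2 pairs. Hsph1 had an r of 0.528 that turned to -0.76 without 2 pairs, so it rested on those. The median r was 0.589 over the 10 members and 0.372 over all 13384 genes. Those genes were not matched to the members by level, so the difference is no result about chaperones in particular.

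The wider chaperone network was followed through 4 lists of 69 genes, 68 of them in the table (Cct6a was not matched). At 50 ng, 0 of 30 tested cytosolic heat shock and co-chaperone genes, 0 of 24 genes of ER folding and the unfolded protein response, 0 of 6 mitochondrial chaperones and 0 of 7 subunits of the chaperonin TRiC were called between genotypes, in either direction. At 10, 1 and 0.5 ng the lists likewise had 0 called genes. Their median log2 fold changes at 50 ng were -0.09, 0.09, -0.23 and -0.18, beside -0.00339 over all genes tested. At 50 ng the mitochondrial genes were all below 0 (0 of 6 positive), as were the TRiC genes (0 of 7 positive). This uniform sign depended on GFAP-IL6 library 4, without which Hspe1 was at 0.050 and Cct5 at 0.15. At 10 ng 0 of 6 and 2 of 7 were positive, with medians of -0.04 and -0.13. At both 1 and 0.5 ng 3 of 6 and 3 of 7 were positive, with mitochondrial medians of 0.13 and 0.08 and TRiC medians of -0.05 and -0.10.

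Sil1, the nucleotide exchange factor of Hspa5, had the largest fall of the ER list. It had 27.1 ± 2.16 CPM in WT and 17.6 ± 3.48 CPM in GFAP-IL6 (SD, n = 4, 50 ng), with ranges of 24.1 to 28.7 and 14.5 to 22.4 CPM that did not overlap. Sil1 was picked as the extreme of its list from these same values. The share of all genes with separate ranges was not computed, so the lack of overlap is no result about Sil1 in particular. The log2 fold change was -0.71 ± 0.22 (SE, edgeR adjusted p = 0.466), and at 10 ng it was -0.65 ± 0.27 (edgeR adjusted p = 0.565). Calr, the ER lectin chaperone calreticulin, had the largest rise of that list, 0.40 ± 0.20 at 50 ng (edgeR adjusted p = 0.835) and 0.40 ± 0.15 at 10 ng (edgeR adjusted p = 0.490).

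Of the cytosolic list, Hsf2, a heat shock transcription factor, had the largest rise at 50 ng, 0.41 ± 0.32, and Hspbp1, a nucleotide exchange factor of Hsp70, the largest fall, -0.30 ± 0.17. In the mitochondrial list the extremes were Hspe1 (Hsp10) at -0.12 ± 0.18 and Grpel1, the exchange factor of mitochondrial Hsp70, at -0.28 ± 0.23. In TRiC they were Cct5 at -0.07 ± 0.19 and Cct3 at -0.33 ± 0.17. None of these passed the test, and their adjusted p at 50 ng lay between 0.835 and 0.949 by edgeR.

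At 1 ng against 50 ng, 2 of 29 tested genes of the cytosolic list were called, where 1.14% of all genes were. Both encode J-domain co-chaperones that deliver clients to Hsp70. They are named after their values were seen. The other 3 lists had 0 calls by edgeR, while the DESeq2 test called 1 gene each of the ER and the mitochondrial list. At 1 ng against 50 ng Dnajb6 fell by 0.83 ± 0.18 on the log2 scale (edgeR adjusted p = 0.0143), from a median of 105 CPM (range 56.5 to 141, n = 8) to 54.8 CPM (47.8 to 68.9). Dnaja2 rose by 0.46 ± 0.11 (edgeR adjusted p = 0.0248), from 283 CPM (244 to 310.3) to 350.0 CPM (329 to 464), with ranges that did not overlap. How many of all genes had separate ranges between these inputs was not computed. At 0.5 ng against 50 ng the values were -0.83 for Dnajb6 (edgeR adjusted p = 0.102) and 0.03 for Dnaja2 (edgeR adjusted p = 0.970), and at 0.5 ng and at 10 ng none of the 4 lists had a called gene. Across the alternatives the adjusted p ran from 0.00074 to 0.12 for Dnajb6 and from 3.52e-05 to 0.383 for Dnaja2, so neither call held under all of them. The log2 fold changes ran from -0.90 to -0.76 for Dnajb6 and from 0.27 to 0.49 for Dnaja2. With a replicate number left out the adjusted p was 0.0607 to 0.299 for Dnaja2, and for Dnajb6 it was 0.12, 0.107, 0.099 and 0.0144 without number 1, 2, 3 and 4.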

How the data were processed

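Frontal cortex total RNA of WT and GFAP-IL6 mice was profiled by 3'Pool-seq at 4 inputs with 4 libraries each. The authors removed poly(A) tails from the reads, aligned them with STAR 2.4 to the mouse genome and used featureCounts with GENCODE genes, keeping unique alignments. The deposited values were raw counts per gene, not normalized, in 32 columns with a separate column for the gene length; 0 per-sample columns were left unmapped. Strand use in counting is not given in the sources used here. Groups and replicate numbers came from the sample titles.

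CPM was computed from the column totals without length correction. Differential expression used edgeR 4.0.16 (R 4.3.3) with TMM, filterByExpr and the quasi-likelihood test. Genotypes were compared within an input (4 against 4, no covariate), and inputs and interactions within the 16 libraries of the 2 inputs with genotype as a covariate. Genes were called at a Benjamini-Hochberg adjusted p-value under 0.05 over all genes tested. Intervals are at the 95% level. The fits were tested on simulated data. Members and lists were chosen with earlier results of these data known. All 10 members were named, of each list the genes called in the genotype comparison at 50 or 10 ng or at 0.5 ng against 50 ng and the extremes at 50 ng, and Il6 and Gfap as label checks. Alternatives were DESeq2 1.42.0 (size factors, test), no filter, thinning, a single fit of 32 libraries, the replicate block and leaving out replicates. Promoters were from RefSeq (GRCm38.p6) and gene positions and transcripts from GENCODE (GRCm38, the build aligned to). Other values used Python 3.11.15, numpy 2.4.6, pandas 2.3.3, scipy 1.17.1 and matplotlib 3.10.9.

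Totals of 261378 to 9840302 counts set a floor of 3 counts, or 0.305 to 11.5 CPM. Reads carried no molecular identifiers, so floors cover counting error only. The 48 pairs of replicates differed beyond sampling noise (lowest chi-square per degree of freedom 2.37).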

Additional observations from a re-analysis of the deposited data

Results flagged for a closer look

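In 80 combinations of a chaperone with a group of 4 libraries, 5 held a library whose gap to the rest was large for the range of the group; about 1 in 20 groups would be marked so by chance, and 4 of the 5 were at 50 or 10 ng. Hsp90aa1 was 1268 CPM in GFAP-IL6 library 2 at 50 ng, against 1186 to 1189 CPM in the other 3. Hsp90b1 was 530.3 CPM in WT library 2 at 10 ng, against 429 to 431 CPM. Dnajb1 was 62.9 CPM in WT library 1 at 10 ng, against 48.5 to 49.5 CPM, and 23.0 CPM from 6 counts in GFAP-IL6 library 2 at 1 ng, against 46.1 to 50.2 CPM. Hspb1 was 5.27 CPM from 7 counts in WT library 2 at 50 ng, against 9.82 to 10.5 CPM.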

How the results depend on the processing

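No member was called in any of the 10 comparisons under any alternative (0 in each, replicate block included), and among 403 alternative log2 fold changes of members the smallest adjusted p was 0.107, or 0.311 among 432 with a replicate left out. Signs turned for 15 and 37 of these uncalled values, and the cause was not tested. With every library thinned, GFAP-IL6 against WT was 0.18 for Hspa1b at 50 ng, 0.0031 for Hsp90ab1 at 10 ng and 0.010 at 0.5 ng, and against 50 ng the value was 0.014 for Dnajb1 at 0.5 ng, and -0.014 for Hspa1b and -0.052 for Hspa8 at 10 ng. With no filter, Hspa1b and Hspa8 at 10 ng against 50 ng were -0.011 and -0.0074, and in a single fit of all 32 libraries -0.0074 and -0.0026, with Hspa1b between genotypes at 50 ng at 0.0054. With the replicate block, genotype values were -0.019 for Hspa5 at 50 ng, and 0.019 for Dnajb1 and 0.044 for Hspa1b at 1 ng, and Hspa1b at 10 ng against 50 ng was -0.023.

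With a replicate left out, genotype values at 50 ng ranged from -0.10 to 0.067 for Hsp90ab1, -0.16 to 0.089 for Hspa1b, -0.080 to 0.15 for Hspa5, -0.21 to 0.044 for Hspa8 and -0.0095 to 0.086 for Hsph1. At 10 ng they ranged from -0.027 to 0.065 for Hsp90aa1, -0.086 to 0.095 for Hsp90ab1 and -0.072 to 0.37 for Hspa1a. At 1 ng they ranged from -0.51 to 0.35 for Dnajb1 and -0.26 to 0.021 for Hsph1, and at 0.5 ng from -0.14 to 0.026 for Hsp90ab1, -0.15 to 0.52 for Hsp90b1, -0.30 to 1.27 for Hspa1a and -0.039 to 0.28 for Hspa5. Against 50 ng, values at 10 ng ranged from -0.066 to 0.053 for Hspa1b, -0.034 to 0.033 for Hspa8 and -0.075 to 0.0019 for Hsph1, at 1 ng from -0.060 to 0.23 for Hspb1, and at 0.5 ng from -0.017 to 0.31 for Hsp90b1, -0.00065 to 0.17 for Hspa5 and -0.0085 to 0.13 for Hspa8. Without GFAP-IL6 replicate 4, Cct5 and Hspe1 turned to 0.15 and 0.050 at 50 ng (ranges over left-out replicates -0.16 to 0.15 and -0.19 to 0.050). Leaving out that library moved the count of all genes called between genotypes at 50 ng from 33 to 78. Leaving out any other library there gave 11 to 23.

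The median SD of the members at 50 ng was 0.266 with every library thinned to the lowest total, where fewer counts add counting error, and 0.130 to 0.186 with a replicate number left out. At 1 ng it was 0.266 with a pseudocount of 5, 0.420 thinned and 0.242 to 0.321 with a number left out. The median agreement of same-numbered libraries was 0.571 to 0.823 with a number left out, the highest without number 4, and the r of Hsph1 ranged from -0.73 to 0.784.

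Calls in the wider lists depended on the alternative. At 1 ng against 50 ng, where 2 cytosolic genes were called, DESeq2 called 5, thinning 1, the single fit 1 and leaving out a replicate number 0 to 1. The gene called under thinning was neither Dnajb6 nor Dnaja2, which both lost their call there (edgeR adjusted p = 0.0825 and 0.383). At 0.5 ng DESeq2 called 4, the single fit 4, no filter 1 and the replicate block 1, against 0. The ER list had 1 call against 0 at 1 and 0.5 ng under thinning, no filter, the DESeq2 test and DESeq2 size factors, and at 0.5 ng 1 in the single fit. The mitochondrial list had 1 at 1 ng under DESeq2 size factors, the DESeq2 test and the replicate block, and 0 to 1 with a number left out. Between genotypes at 0.5 ng the single fit called 3 cytosolic and 1 ER gene, and at 10 ng against 50 ng the replicate block called 1 of each.

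Same-numbered libraries deviated together to varying degrees (r 0.036 to 0.19 between genotypes at 50 ng, 0.077 to 0.24 in WT and 0.052 to 0.51 in GFAP-IL6 between 50 and 10 ng). The labels do not say that a number marks shared RNA, so the numbers were not taken as pairs. Not every pair had an r over 0.1, but counting error lowers r, so a low r does not decide whether RNA was shared. The high Ttr of WT library 3 at all 4 inputs is a hint from the data that some RNA was shared across inputs. GFAP-IL6 library 2 likewise had the highest Ttr of its genotype at each input (335, 305, 230 and 193 CPM from 50 down to 0.5 ng). Without the replicate block, p-values between inputs treat same-numbered libraries as separate. The replicate block moved the count of all genes called between genotypes from 33 to 39 at 50 ng, from 40 to 77 at 10 ng and from 3 to 7 at 1 ng, and at 10, 1 and 0.5 ng against 50 ng from 0 to 155, from 129 to 224 and from 192 to 233. In the single fit of 32 libraries Gfap lost its call at 50 and 10 ng (adjusted p = 0.378 and 0.135) with log2 fold changes of 2.22 and 2.51. Depth limited the scarce members: 3 counts were 0.398 to 2.80 CPM at 50 ng and 1.10 to 10.2 CPM at 0.5 ng, where Hspa1a, Hspa1b and Hspb1 had medians of 27.8, 5.08 and 9.80 CPM.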
